A study of Mus musculus with 24 samples.

Results

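The 9 glycolytic enzyme isoforms described here were Hk1, Hk2, Pfkl, Pfkm, Pfkp, Aldoa, Pklr, Pkm and Ldha. They were chosen by name, and each was measured by 1 probe set that named exactly 1 gene, so that they made up 9 of the 19505 named genes. Pfkl and Pklr are the isoforms named for the liver, and the other 7 are isoforms of muscle, brain, platelets or most tissues. RNA was hybridised to 24 single-colour arrays of outbred ICR-CD1 mice, 4 per group. Material labelled whole embryo came from embryonic days 7.5 (ED7.5) and 14.5 (ED14.5), and neonatal liver came from day 7.5 after birth (PD7.5). At each age the mice were grandoffspring of control grandfathers or of obese grandfathers, called SL, an abbreviation that is not explained in the sources used here. No other treatment, allele or sex is named, and separate litters or cultures are not stated for the 4 arrays of a group, so p-values measure only the spread between these samples, which may be technical.

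Glycolysis breaks glucose down to pyruvate and then lactate. Several of its steps are catalysed by isoforms from separate genes, which differ between tissues in how they respond to substrate and to hormones. Liver takes up glucose after a meal and makes it during fasting, and its pyruvate kinase is a product of Pklr, whereas Pkm serves embryonic and most adult tissues. Pklr also gives the pyruvate kinase of red blood cells, from a start site upstream of the liver one. Red blood cells live on glycolysis, and the fetal liver is the main site where they are formed in mid gestation.

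Marker genes showed what each sample type held. At ED7.5 all 12 markers of the decidua, the maternal tissue that surrounds the embryo, lay above background on every array, with a mean log2 value of 11.25 in control samples, and 1 to 4 of the 8 epiblast and primitive streak markers did so. Material labelled whole embryo at ED14.5 carried 11 of 12 hepatocyte markers and 9 of 9 erythroid markers above background on all 8 arrays, at means of 11.62 and 11.70 in control samples. On those arrays at most 2 of 8 skeletal muscle markers and 3 of 8 neuron markers lay above background. Below, the liver means the PD7.5 samples, although the ED14.5 arrays carried hepatocyte markers too. PD7.5 liver carried all 12 hepatocyte markers at a mean of 13.00, while the erythroid mean ranged from 8.91 to 9.63 in control livers and from 7.69 to 9.30 in SL livers. Age, tissue and cell makeup therefore cannot be told apart in any comparison between ages, and in these bulk samples fewer cells of a type cannot be told apart from less RNA per cell.

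**Figure D1:**
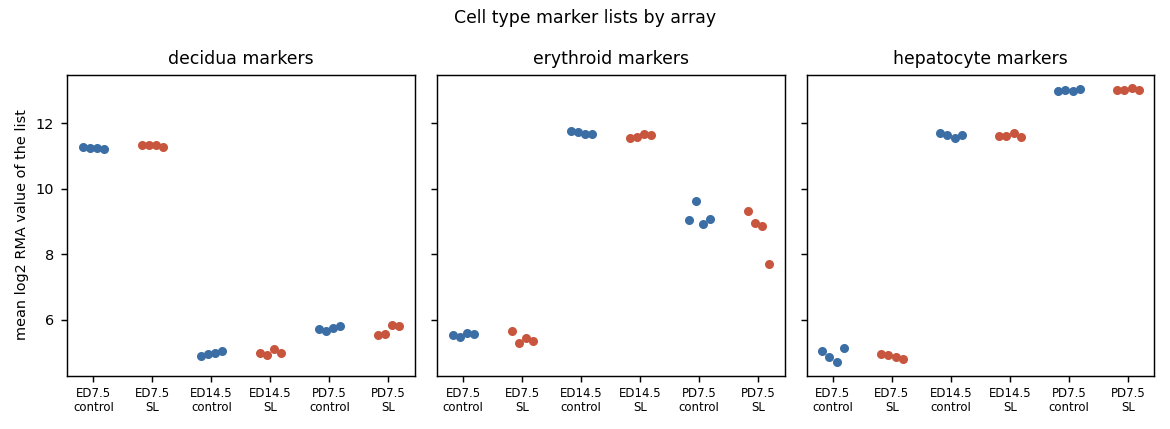
Mean log2 value of the decidua, erythroid and hepatocyte marker lists on each array (vertical axis) by age and group (horizontal axis; blue, control; orange, SL). Decidua markers averaged 11.25 in ED7.5 control samples and 4.97 in ED14.5 control samples, erythroid markers averaged 5.54, 11.70 and 9.16 in the 3 control groups, and hepatocyte markers averaged 4.93, 11.62 and 13.00.

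Promoter sequences are shown for 3 members chosen by the comparisons between ages. Pklr and Hk2 had the largest rise and the largest fall from ED7.5 to ED14.5. Ldha changed little but was the only member called higher from ED14.5 to PD7.5. All 9 members matched the RefSeq promoter table (build GRCm38.p6), which gives 18 starts for them, each with 250 bases before the start and 50 after it. Pklr is listed with a pair of starts 481 bases apart on chromosome 3, and its probe set is annotated to transcripts from both, so the array does not separate the upstream from the downstream form. The upstream window lies at chr3:89135892-89136191 and the downstream window at chr3:89136373-89136672, both on the plus strand. The Hk2 window lies at chr6:82774405-82774704 on the minus strand, and the window of the first listed Ldha start lies at chr7:46845554-46845853 on the plus strand. Capitals mark matches to the motifs described after the sequences.
Pklr, upstream start: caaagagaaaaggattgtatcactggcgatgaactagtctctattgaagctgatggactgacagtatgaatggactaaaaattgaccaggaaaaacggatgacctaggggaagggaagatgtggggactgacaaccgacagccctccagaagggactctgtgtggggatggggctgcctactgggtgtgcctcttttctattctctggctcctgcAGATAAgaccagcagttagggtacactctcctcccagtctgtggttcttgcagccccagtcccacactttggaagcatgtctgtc
Pklr, downstream start: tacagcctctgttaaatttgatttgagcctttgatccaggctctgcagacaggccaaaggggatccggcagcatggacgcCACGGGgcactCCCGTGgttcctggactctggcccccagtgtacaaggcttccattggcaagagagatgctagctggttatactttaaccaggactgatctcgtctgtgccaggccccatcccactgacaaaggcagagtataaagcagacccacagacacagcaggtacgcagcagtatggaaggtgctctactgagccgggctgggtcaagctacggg
Hk2: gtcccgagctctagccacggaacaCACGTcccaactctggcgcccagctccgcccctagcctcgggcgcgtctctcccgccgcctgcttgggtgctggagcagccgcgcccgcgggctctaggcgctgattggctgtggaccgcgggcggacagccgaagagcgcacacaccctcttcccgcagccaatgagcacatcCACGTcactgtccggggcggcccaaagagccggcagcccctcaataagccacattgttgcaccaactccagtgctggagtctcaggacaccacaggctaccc
Ldha, first listed start: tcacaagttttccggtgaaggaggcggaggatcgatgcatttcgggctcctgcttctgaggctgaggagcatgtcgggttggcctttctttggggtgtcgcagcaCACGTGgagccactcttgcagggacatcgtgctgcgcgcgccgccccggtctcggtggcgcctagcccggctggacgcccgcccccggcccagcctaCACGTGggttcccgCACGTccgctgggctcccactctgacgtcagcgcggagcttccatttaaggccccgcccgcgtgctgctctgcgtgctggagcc

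The letters searched on both strands were AGATAA (a binding motif of GATA factors), CACGTG (the E-box), ACGTG (the core of the hypoxia response element, which is contained in the E-box) and CACGGG (an arm of the carbohydrate response element known from the liver pyruvate kinase promoter). The upstream Pklr window held 1 AGATAA, 35 bases before the start, and none of the other letters. The downstream Pklr window held CACGGG and, 5 bases further on, its reverse complement, starting 170 and 159 bases before the start. That paired arrangement was found in 1 of the 32851 promoters of the table, or 0.00304%, and since the element was described in this gene the match is a description only. Ldha held a pair of E-boxes, 145 and 48 bases before its start, and a further hypoxia core outside them at 34 bases. Hk2 held hypoxia cores 226 and 52 bases before its start. The other listed Ldha start held none of these letters. Beyond the members shown, ACGTG lay in windows of Hk1, Pfkm, Aldoa and Pkm, CACGTG and AGATAA in windows of Pfkm, and CACGGG in windows of Pfkl and Pfkm. Among all promoters of the table the share with at least 1 match was 11.2% for AGATAA, 7.15% for CACGTG, 19.6% for ACGTG and 10.1% for CACGGG, and among the 18 promoters of the members the counts were 4, 2, 8 and 3. Some of these windows overlap, so the counts are not of independent promoters. An ACGTG site of Aldoa and an AGATAA site of Pfkm each lie in a pair of overlapping windows and are counted in both.

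Between ED7.5 and ED14.5 the pyruvate kinases moved in opposite directions. Pklr rose 68.8-fold in control samples, from values near background (log2 difference 6.10, SE 0.120, adjusted p = 3.34e-13), and Pkm fell 3.13-fold (-1.65, SE 0.110, adjusted p = 1.93e-08). Hk1, Pfkm and Pfkl rose as well, Hk2, Pfkp and Aldoa fell, and Ldha did not pass the test. In control samples 4 of 9 members were thus called higher, where 24.7% of all genes were, and 4 of 9 were called lower, where 25.4% of all genes were. From ED14.5 to PD7.5 liver 8 of 9 members were called lower in control samples, against 25.5% of all genes, and 1 of 9, Ldha, was called higher, against 21.0%. The 8 include Hk2, whose control values at these ages overlapped and lay mostly at or below background in the livers. A gene was called where its p-value, adjusted over all 19505 genes, lay below 0.05.

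**Figure D2:**
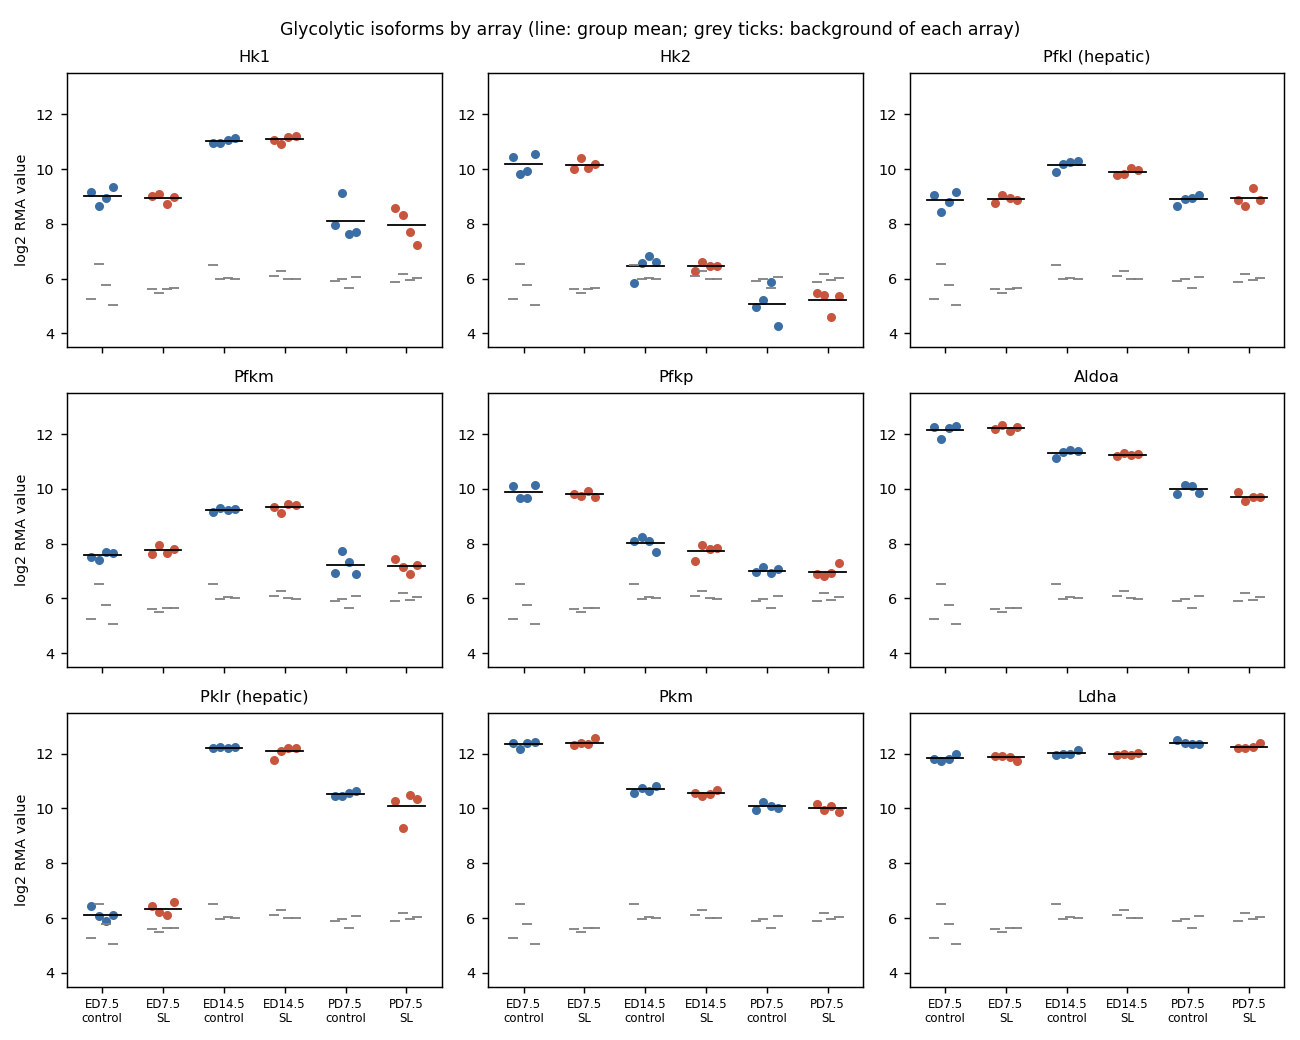
Deposited log2 value of each isoform on each of the 24 arrays (vertical axis, points) by age and group (horizontal axis; blue, control; orange, SL; black line, group mean; grey ticks, background of the array). Pklr stood between 5.89 and 6.58 on the ED7.5 arrays and between 11.77 and 12.26 on the ED14.5 arrays, whereas Pkm stood between 12.18 and 12.56 and between 10.47 and 10.82, and control and SL points overlapped for every isoform at every age.

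Hexokinases, which trap glucose in the cell as glucose 6-phosphate, came first. Hk1, the broadly expressed form that red blood cells also use, had log2 values of 9.18, 8.64, 8.96 and 9.34 on the ED7.5 control arrays, 10.95, 10.96, 11.08 and 11.15 on the ED14.5 control arrays, and 7.97, 9.12, 7.63 and 7.69 on the PD7.5 control arrays. The corresponding SL values were 9.01, 9.08, 8.73 and 8.98, then 11.05, 10.92, 11.19 and 11.21, then 8.58, 8.34, 7.70 and 7.23. Every ED14.5 value thus lay above every value of the other ages, and the liver values were the most spread. Hk1 rose 4.01-fold from ED7.5 to ED14.5 in control samples (2.00, SE 0.273, adjusted p = 2.66e-05) and fell 7.64-fold from there to the liver (-2.93, SE 0.273, adjusted p = 9.04e-07). In SL samples these differences were 2.15 (SE 0.237) and -3.13 (SE 0.237). The liver was lower than ED7.5 by 0.93 in control samples, whose values overlapped (SE 0.273, adjusted p = 0.0109), and by 0.99 in SL samples, whose values did not (SE 0.237, adjusted p = 0.0031). The liver array with the highest Hk1 value, PD7.5 control replicate 2, also had the highest erythroid marker mean (9.63), and the one with the lowest, PD7.5 SL replicate 4, had the lowest (7.69). The part of red cells in the level of Hk1 was not tested. Over the 8 livers the Pearson correlation of Hk1 with the erythroid mean was 0.808 (exact permutation p = 0.0144, adjusted 0.329 over 27 relations) and Spearman's rho was 0.786 (exact permutation p = 0.0279, adjusted 0.619). The Pearson correlation was 0.660 without the 2 livers farthest from the median erythroid level, and neither the Pearson nor the Spearman value passed adjustment. Pkm in the livers (0.741) and Pfkp at ED14.5 (0.713) had the next highest correlations of the 27. Without the 2 arrays farthest from the median erythroid level these were 0.313 and 0.428. Within the 4 livers of a group there were too few samples for a correlation.

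Hk2, the insulin-responsive form of muscle and of many growing tissues, changed in the other direction from Hk1 between ED7.5 and ED14.5. From ED14.5 to the liver both fell. It stood at 10.45, 9.83, 9.94 and 10.54 on the ED7.5 control arrays, at 5.83, 6.57, 6.82 and 6.61 on the ED14.5 control arrays, and at 4.98, 5.22, 5.87 and 4.28 on the PD7.5 control arrays. SL values were 10.002, 10.40, 10.02 and 10.19, then 6.28, 6.61, 6.47 and 6.46, then 5.48, 5.42, 4.59 and 5.35. All ED7.5 values were high and all later values were close to or below background, the level under which 75% of an array's negative control probe sets lay. Hk2 was above background on 3 of 4 ED14.5 control arrays, on 1 of 4 control livers and on 0 of 4 SL livers, and with the 90th percentile of the negative controls as background on 0 of 4 arrays of each of these groups. It fell 13.2-fold from ED7.5 to ED14.5 in control samples (-3.73, SE 0.304, adjusted p = 1.53e-07) and 13.0-fold in SL samples (-3.70, SE 0.183). From ED14.5 to the liver Hk2 differed by -1.37 in control samples, whose values overlapped (SE 0.304, adjusted p = 0.00194). In SL samples it was at least 1.36-fold lower at that step, a bound set by background (adjusted p = 6.84e-05). From ED7.5 to the SL livers it was at least 17.6-fold lower, a bound set by background, with an adjusted p of 5.74e-11. The decidua marker mean went from 11.25 to 4.97 between the ED7.5 and ED14.5 control samples, and its part in the change of Hk2 was not tested.

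Phosphofructokinase commits sugar to glycolysis and is assembled from liver (Pfkl), muscle (Pfkm) and platelet (Pfkp) subunits. The liver subunit Pfkl was highest at ED14.5, not in the PD7.5 liver. Its values were 9.88, 10.19, 10.25 and 10.29 on the ED14.5 control arrays and 9.78, 9.83, 10.02 and 9.97 on the ED14.5 SL arrays. On the control arrays it stood at 9.05, 8.45, 8.80 and 9.15 at ED7.5 and at 8.67, 8.93, 8.94 and 9.07 at PD7.5, which overlap. SL values were 8.77, 9.04, 8.93 and 8.88 at ED7.5 and 8.88, 8.66, 9.31 and 8.88 at PD7.5. From ED7.5 to ED14.5 Pfkl rose 2.44-fold in control samples (1.29, SE 0.161, adjusted p = 1.14e-05), and it fell 2.38-fold from ED14.5 to the liver (-1.25, SE 0.161, adjusted p = 1.91e-05). Between ED7.5 and PD7.5 the difference was 0.04 (95% interval -0.31 to 0.39, adjusted p = 0.867) in control samples and 0.02 (-0.27 to 0.32, adjusted p = 0.897) in SL samples.

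Pfkm, like Pfkl, was highest at ED14.5. Its values lay between 7.41 and 7.69 on the ED7.5 control arrays, between 9.15 and 9.29 on the ED14.5 control arrays and between 6.90 and 7.75 on the PD7.5 control arrays. The rise to ED14.5 was 3.18-fold (1.67, SE 0.167, adjusted p = 1.26e-06) and the fall to the liver 4.04-fold (-2.02, SE 0.167, adjusted p = 3.05e-07). Between ED7.5 and PD7.5 Pfkm did not pass the test in control samples (-0.35, SE 0.167, adjusted p = 0.100), but passed it without PD7.5 control replicate 2 (-0.52, adjusted p = 0.00518) and passed it in SL samples (-0.58, SE 0.132, adjusted p = 0.00225). Pfkp, the platelet subunit, fell at each step, from 9.66 to 10.13 on the ED7.5 control arrays to 7.69 to 8.24 at ED14.5 and 6.92 to 7.13 at PD7.5. Its log2 differences in control samples were -1.86 (SE 0.15, adjusted p = 1.32e-07) and then -1.01 (SE 0.15, adjusted p = 7.05e-05), and in SL samples -2.07 and -0.75.

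Aldoa, the aldolase of muscle and red blood cells, which splits fructose 1,6-bisphosphate, also fell at each step. It stood at 12.25, 11.83, 12.22 and 12.31 on the ED7.5 control arrays, at 11.12, 11.36, 11.41 and 11.39 on the ED14.5 control arrays and at 9.83, 10.14, 10.11 and 9.84 on the PD7.5 control arrays. The 3 ages did not overlap. The differences were -0.83 (SE 0.136, adjusted p = 0.000138) and -1.34 (SE 0.136, adjusted p = 1.99e-06) in control samples, and -0.97 (SE 0.102) and -1.54 (SE 0.102) in SL samples.

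Pklr, the liver and red-cell pyruvate kinase, which makes pyruvate in the last step of the pathway, had the largest change of the 9 members in these comparisons between ages. It stood at 6.42, 6.07, 5.89 and 6.10 on the ED7.5 control arrays, near background, above it on 3 of 4 and above the 90th percentile of the negative controls on 2 of 4. It reached 12.19, 12.25, 12.20 and 12.26 on the ED14.5 control arrays and 10.44, 10.44, 10.56 and 10.64 in the control livers. SL values were 6.45, 6.24, 6.10 and 6.58, then 11.77, 12.11, 12.23 and 12.22, then 10.26, 9.28, 10.49 and 10.33. No age overlapped another, and the ED14.5 arrays were above the livers in both arms. The rise to ED14.5 was 53.5-fold in SL samples (5.74, SE 0.231, adjusted p = 1.91e-10). From ED14.5 to the liver Pklr fell 3.26-fold in control samples (-1.71, SE 0.120, adjusted p = 6.58e-08) and 3.98-fold in SL samples (-1.99, SE 0.231, adjusted p = 7.66e-06). Over the same step the hepatocyte marker mean went from 11.62 to 13.00 and the erythroid marker mean from 11.70 to 9.16 in control samples. Single hepatocyte markers changed by -0.14 to 6.87, with a median of 0.88, and single erythroid markers by -3.26 to -1.44. The part of these cell types in the fall of Pklr was not tested. Within the 8 livers the Pearson correlation of Pklr with the erythroid mean was 0.047 (exact permutation p = 0.833, adjusted 0.913 over 27 relations). Over the 8 ED14.5 arrays it was 0.660 (exact permutation p = 0.0654, adjusted 0.441), and 0.825 without the 2 arrays farthest from the median erythroid level. Spearman's rho over these 8 arrays was 0.452 (exact permutation p = 0.267, adjusted 0.898).

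Pkm, the pyruvate kinase of embryonic and most adult tissues, whose M1 and M2 splice forms share this probe set, stood at 12.39, 12.18, 12.39 and 12.42 on the ED7.5 control arrays. It was at 10.58, 10.74, 10.64 and 10.82 at ED14.5 and at 9.94, 10.24, 10.10 and 10.02 in the control livers, with no overlap between ages. SL values ranged from 12.30 to 12.56, from 10.47 to 10.69 and from 9.89 to 10.15. The fall of Pkm from ED14.5 to the liver was 1.54-fold in control samples (-0.62, SE 0.110, adjusted p = 0.000336) and 1.46-fold in SL samples (-0.54, SE 0.106, adjusted p = 0.000716). With the arrays centred on the 7772 genes above background on every array, the difference in SL samples was -0.32 (adjusted p = 0.0250).

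Ldha, which turns pyruvate into lactate, was the only member called higher from ED14.5 to the liver. It stood at 11.80, 11.72, 11.79 and 11.995 on the ED7.5 control arrays, at 11.93, 11.99, 11.99 and 12.14 on the ED14.5 control arrays and at 12.49, 12.41, 12.35 and 12.35 in the control livers. SL values were 11.91, 11.92, 11.89 and 11.74, then 11.95, 11.99, 11.96 and 12.04, then 12.19, 12.22, 12.24 and 12.39. The livers lay above the other ages in both arms, by little. The liver exceeded ED14.5 by 0.38 in control samples (SE 0.103, adjusted p = 0.00707) and by 0.27 in SL samples (SE 0.0932, adjusted p = 0.0267). Leaving out ED14.5 SL replicate 1, 2 or 3 or PD7.5 SL replicate 4 ended the SL call, and adjusted p then ranged from 0.0515 to 0.0718. With the arrays centred on genes above background the SL difference was 0.50. From ED7.5 to ED14.5 Ldha differed by 0.19 in control samples (95% interval -0.03 to 0.41, adjusted p = 0.152), a call that was made with an intensity trend and robust prior in limma (adjusted p = 0.0302).

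**Figure D3:**
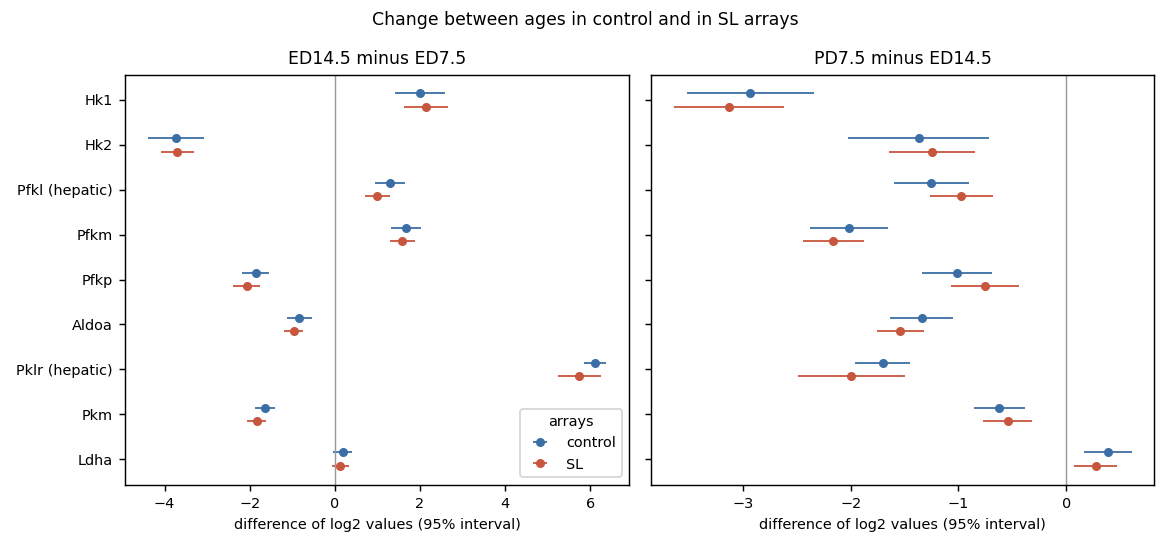
Difference of group mean log2 values (horizontal axis, with 95% intervals) for each isoform (vertical axis) from ED7.5 to ED14.5 and from ED14.5 to PD7.5, in control (blue) and SL (orange) arrays. At the first step Pklr lies at 6.10 and Hk2 at -3.73 in control arrays, while Ldha is at 0.19 in control and 0.12 in SL arrays, and at the second every isoform but Ldha lies below 0.

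The SL arrays, which the control comparisons did not use, gave the same counts at both of these steps. From ED7.5 to ED14.5, 4 of 9 members were called higher (24.9% of all genes) and 4 of 9 lower (25.9%). From ED14.5 to PD7.5, 1 of 9 was called higher (22.7%) and 8 of 9 lower (25.7%), with Hk2 again among the latter. From ED7.5 to PD7.5, control samples had 2 of 9 members called higher (21.2% of all genes), namely Pklr and Ldha, and 5 of 9 called lower (31.3%), namely Hk2, Pfkp, Pkm, Aldoa and Hk1. SL samples had 2 of 9 called higher (22.1%) and 6 of 9 lower (31.5%), Pfkm being the sixth. Centring the arrays on genes above background moved the median difference of all genes from ED14.5 to PD7.5 from -0.02 to 0.16 in control and from 0.03 to 0.26 in SL samples, and from ED7.5 to PD7.5 from -0.07 to 0.11 and from -0.04 to 0.16. Of all calls the share that was higher then moved from 45.2% to 60.3% and from 47.0% to 64.3% for the former, and from 40.3% to 54.6% and from 41.2% to 56.6% for the latter, while the members' counts in each direction were as reported.

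Setting hepatic beside other isoforms within each array removed any scaling that the isoforms of an array share. The difference Pklr minus Pkm changed by 7.75 from ED7.5 to ED14.5 and by -1.08 from ED14.5 to the liver in control samples, and by 7.58 and -1.45 in SL samples. At ED7.5 Pklr lay near background, above it on 3 of 4 control arrays, so the size of the first change is uncertain. Pfkl minus Pfkp changed by 3.15 and -0.24 in control samples, so that this pair shifted toward the liver subunit at the first step and by little at the second. Pfkl minus Pfkm, by contrast, changed by -0.38 and then 0.76 in control samples and by -0.59 and 1.19 in SL samples. The liver subunit thus gained on the muscle subunit only from ED14.5 to the liver, and on the platelet subunit only from ED7.5 to ED14.5, within these 4 pairs and 2 steps, for which no test was made. Hk1 minus Hk2 changed by 5.73 and -1.56, the latter with Hk2 at or below background in most livers. Of the hepatic members 2 of 2 were called higher at the first step and 2 of 2 lower at the second. Of the other 7 members, 2 were higher and 4 lower at the first, and 1 was higher and 6 lower at the second, with Hk2 among these 6. Of all genes 24.7% were higher and 25.4% lower at the first step and 21.0% and 25.5% at the second, so the 2 of 7 that were higher at the first step lay near the share of all genes.

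**Figure D4:**
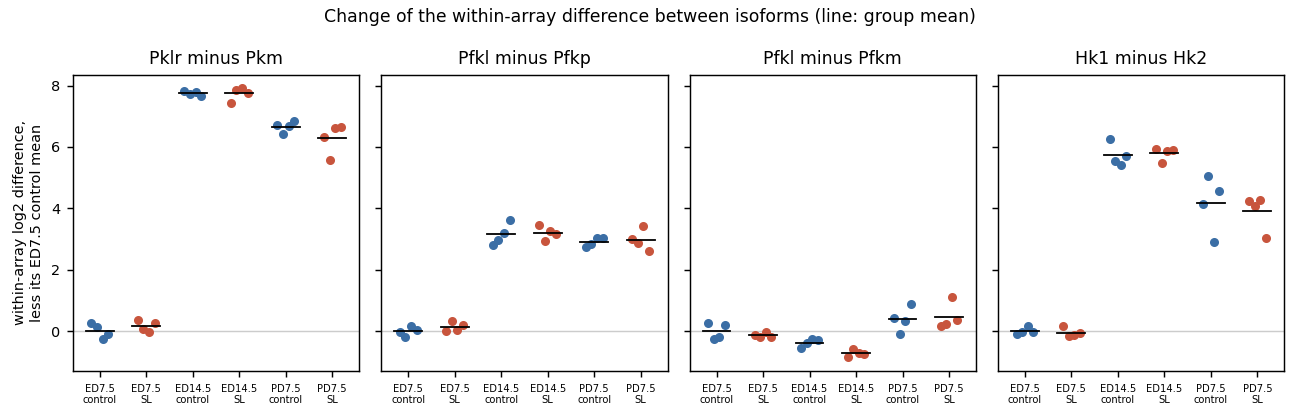
Change of the within-array log2 difference between a pair of isoforms, less its mean on the ED7.5 control arrays (vertical axis), on each array by age and group (horizontal axis; blue, control; orange, SL; black line, group mean). Pklr minus Pkm moved up by 7.75 at ED14.5 and stood 6.67 above its start in the control livers, Pfkl minus Pfkp stood 2.91 above its start there, and Pfkl minus Pfkm stood 0.38 above its start. Pklr lay near background at ED7.5.

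Other genes of the pathway were followed as lists, whose counts in control samples are to be read against all genes, of which 24.7% were higher and 25.4% lower at the first step (ED7.5 to ED14.5) and 21.0% and 25.5% at the second (ED14.5 to the liver). Of 13 other glycolytic enzymes 4 were called higher and 4 lower in control samples from ED7.5 to ED14.5, near those shares, and 0 higher and 7 lower from ED14.5 to the liver, with a median difference of -0.41 at the latter step beside -0.02 for all genes. The 9 members had a median of -1.34 there. Among the 7 were Hkdc1, a hexokinase-domain gene, which was at least 2.70-fold lower because all livers lay at or below background (adjusted p = 2.24e-08), and Bpgm, which makes the 2,3-bisphosphoglycerate of red blood cells (-1.75, SE 0.169, adjusted p = 1.30e-06). Ldhb, the lactate dehydrogenase subunit of heart, fell from a mean of 8.51 to 6.84 and then differed by -0.64 in the liver (adjusted p = 0.0196), a call lost without PD7.5 control replicate 1 (-0.48, adjusted p = 0.0638) or with arrays centred (-0.45, adjusted p = 0.0804). Aldoc, the aldolase of brain, was above background on 2 of 4 ED7.5 control arrays, so that its level there was not fully measured, and stood at 7.84 at ED14.5 and 7.70 in the liver, a difference of -0.14 (adjusted p = 0.731) that was 0.050 with arrays centred. Hk3, the hexokinase of white blood cells, was above background on 2 of 4 ED7.5 control arrays and stood at 6.72 at ED14.5 and 6.51 in the liver (adjusted p = 0.248).

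Carriers and regulators of glucose use also differed between ages. Slc2a2, the glucose carrier of hepatocytes, rose from a control mean of 6.17 at ED7.5 to 11.34 at ED14.5 and 12.36 in the liver, and each step passed the test (adjusted p = 9.92e-12 and 0.000113). Gckr, which encodes a regulatory protein of hepatic glucose metabolism, was at least 5.94-fold higher at ED14.5 than at ED7.5, where it lay below background, and rose by a further 2.77 in the liver (SE 0.173, adjusted p = 2.29e-08). Slc2a1, the glucose carrier of red blood cells and many other tissues, stood at 12.60 and 12.94 and then fell by 4.19 to 8.75 (adjusted p = 6.30e-11). Slc2a3, the carrier of neurons and placenta, fell from 11.50 to 9.58 to 7.37. Slc16a3, which exports lactate, fell by 3.64 in the liver, whereas Slc16a7, another monocarboxylate carrier, rose by 1.61 and Mpc1, a subunit of the mitochondrial pyruvate carrier, by 2.32. In all, 5 of 8 carriers were called higher and 1 lower at the first step, and 3 higher and 5 lower at the second, beside 24.7% and 25.4%, then 21.0% and 25.5%, of all genes. Of 4 genes that control flux, 2 were higher and 2 lower at the first and 1 was higher and 1 lower at the second, the latter being Pfkfb3, which makes the phosphofructokinase activator fructose 2,6-bisphosphate (-0.81, adjusted p = 0.000594).

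Gluconeogenesis, the route that makes glucose, had 5 of 8 genes called higher and 2 lower from ED14.5 to the liver, after 4 higher and 1 lower at the first step. Pck1, the enzyme that makes phosphoenolpyruvate from oxaloacetate, was at least 38.8-fold higher in the liver than at ED14.5, where all arrays lay below background (adjusted p = 2.95e-10). G6pc, the glucose-releasing phosphatase of liver, was at least 38.6-fold higher (adjusted p = 2.59e-11). Pck2, the mitochondrial form, and G6pc3, the broadly expressed phosphatase, fell by 1.72 and 1.16. At the second step 21.0% of all genes were higher and 25.5% lower, and at the first 24.7% and 25.4%. Of 13 regulators 4 were higher and 3 lower at the first step and 3 were higher at the second, each near the share of all genes, and 7 were lower at the second. Mlxipl encodes the factor ChREBP, which binds the carbohydrate response element. At the second step Mlxipl rose by 1.77 (SE 0.285, adjusted p = 0.000148) and Epas1 by 2.39. Pklr fell over that step, and any part of these factors in its change was not tested. Klf1, a factor of red-cell genes that is also among the erythroid markers, fell by 3.06 (SE 0.173, adjusted p = 9.23e-09), and Myc by 2.92. Hypoxia targets outside glycolysis had 2 of 12 genes higher and 9 lower at the first step, and 5 higher and 2 lower at the second, where Vegfa rose by 1.76 and Egln3 by 1.40 and Bnip3l fell by 1.04 and Ndrg1 by 1.02.

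The comparison of grandoffspring of obese with those of control grandfathers called no isoform. At ED7.5, 0 of 9 members passed (0.00513% of all genes did), with adjusted p from 0.956 to 0.998. At ED14.5, 0 of 9 passed (0.0513%), with adjusted p from 0.459 to 0.998, and at PD7.5, 0 of 9 passed (0.0%), with adjusted p from 0.674 to 0.979. At an unadjusted p below 0.05 there were 0 of 9 members at each age, and 1070, 2223 and 1543 of all genes. No member had groups that did not overlap, which 3.05%, 7.98% and 4.43% of all genes had at the 3 ages. None of the genes in the other pathway lists passed either.

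Pklr in the liver had the widest SL difference of any member at any age. It was lower in SL livers by 0.43 (SE 0.245, 95% interval -0.98 to 0.12, adjusted p = 0.700), and without SL replicate 2, whose value was 9.28, by 0.16. Aldoa was lower in SL livers by 0.27 (SE 0.136, -0.57 to 0.04), and stood at 9.88, 9.55, 9.72 and 9.70 there. At ED14.5 Pfkl was lower by 0.25 (SE 0.117, -0.51 to 0.02, adjusted p = 0.459) and Pfkp by 0.30 (SE 0.160, -0.66 to 0.06, adjusted p = 0.513). For Hk1 in the liver the interval was -1.0 to 0.72, so that a difference of 1.5-fold either way lay inside it. The interval for Hk2 there, -0.61 to 0.85, describes values mostly at or below background and limits no difference in Hk2 RNA. Pkm and Ldha had narrower intervals, of -0.35 to 0.23 and -0.40 to 0.12 in the liver.

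**Figure D5:**
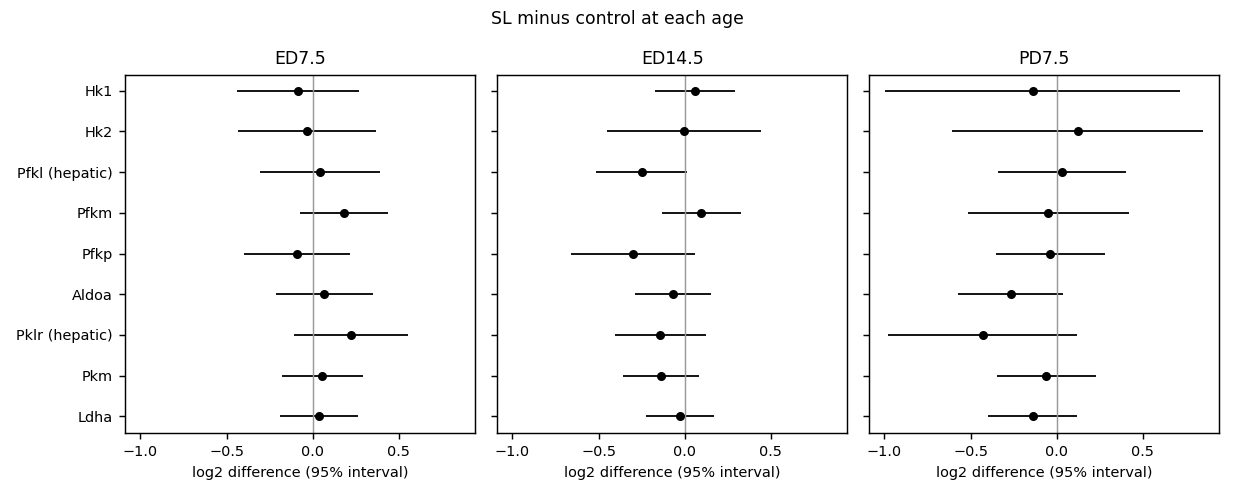
SL minus control difference of group mean log2 values (horizontal axis, with 95% intervals) for each isoform (vertical axis), with 1 panel per age. Every interval crosses 0, and the widest are those of Hk1 and Hk2 in the liver, -1.0 to 0.72 and -0.61 to 0.85, the latter from values mostly at or below background.

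The SL difference was also compared between ages. Between ED14.5 and ED7.5, between PD7.5 and ED14.5 and between PD7.5 and ED7.5, 0 of 9 members passed the interaction test in limma, where 0.0769%, 0.0256% and 0.00513% of all genes did. The widest such differences relative to their errors were those of Pklr (-0.65, SE 0.266, adjusted p = 0.480) and Aldoa (-0.34, SE 0.160, adjusted p = 0.541), both between PD7.5 and ED7.5. Without adjustment these 2 of the 9 members passed at 0.05 between PD7.5 and ED7.5, where 1793 of all 19505 genes did. In the other lists 1 gene passed, Ddit4, a hypoxia target that restrains growth signalling. Its SL difference at PD7.5 was lower by 1.74 than that at ED14.5 (SE 0.310, adjusted p = 0.0472), a call lost with array weights (adjusted p = 0.0656) and without any 1 of 12 of the 16 arrays of those ages (adjusted p up to 0.123).

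Genes with the profile most like that of a member were ranked over all 24 arrays by Pearson correlation among 11870 genes above background on at least 8 arrays. For Pklr these were Mpp1 (0.991), Slc41a3 (0.991) and Cpox (0.991), and for Pkm Praf2 (0.995), Shc1 (0.992) and Add3 (0.991). For Pfkl they were Xrcc6 (0.960), Ecd (0.955) and Dhrs13 (0.954), and for Ldha Slc37a3 (0.953), Tmem205 (0.946) and Entpd5 (0.942). Mpp1 encodes a red-cell membrane protein and Cpox an enzyme of heme synthesis, and no role is given here for the other genes. In control samples Mpp1 averaged 9.37 at ED7.5, 11.34 at ED14.5 and 10.76 at PD7.5, and Cpox 9.004, 12.51 and 11.35. The erythroid marker mean was 5.54, 11.70 and 9.16 in these groups. Whether red cells account for the likeness to Pklr was not tested. The 24 arrays share 3 tissues, so such correlations mostly compare group means.

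Depth has no direct counterpart on arrays, and the number of arrays limits precision. Background differed between arrays, and 48.3% to 64.1% of genes lay above it per array. Samples of a group correlated at 0.981 to 0.993. ED7.5 control replicate 2 and ED14.5 control replicate 1 had the lowest separation of positive from negative control probe sets (areas under the curve of 0.867 and 0.885) and the highest background (6.53 and 6.51). Without both, 8 of 9 members were again called from ED7.5 to ED14.5, a setting chosen after the data were seen.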

How the data were processed

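RNA of 24 samples was hybridised to 1 array each, in 6 groups of 4. Per the labels' protocols, total RNA was extracted with Trizol and 6 µg was labelled. The deposited values are log2 probe set summaries that the authors made by RMA (background correction, quantile normalization and summary) with the oligo package, per the submitters' processing notes, which give no version. Quantile normalization gives arrays run together 1 distribution of values, so a shift shared by most genes would not be seen, and whether all ages were run together is not stated. A probe set for a whole gene merges its splice forms. No source used here names the genome build of the array's annotation. Of 29129 probe sets 6923 were controls, 19572 named 1 gene, 0 several and 2634 none, and the brightest was kept for the 55 genes with several. Values were used as deposited. Per-array background was the 75th percentile of 5222 negative control probe sets, with the 90th as an alternative.

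Groups were compared by two-sided tests in limma 3.58.1 (R 4.3.3, tables read through data.table, version 1.17.8), with Benjamini-Hochberg adjustment over all 19505 genes and a threshold of 0.05. SL was compared with control within each age, ages within the 12 control and the 12 SL arrays, and SL effects between ages by interaction over 24 arrays. The fit used for the reported values was first tested on simulated data, and the alternative settings were not. Of simulated log2 changes of 1 it recovered 61% to 70% in the SL comparisons and 51% to 54% in the interactions. Of changes of 2 it recovered 98% in the former and 94% to 96% in the latter. Correlations with the erythroid mean used exact permutation. Members and gene lists were chosen with earlier results of these data known. Named genes were all members, listed counterparts (Gckr, Slc2a2, Ldhb, Aldoc, Hk3, Slc2a1, Slc2a3), every listed gene past the threshold in an SL or interaction test, and the 2 largest changes per direction and list from ED14.5 to PD7.5. Some listed genes are not reported here. Alternatives covered priors, array weights, dim genes, normalization, centring, probe set choice, replicate block, a joint fit and leaving out arrays.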

Additional observations from a re-analysis of the deposited data

Results flagged for a closer look

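In 4 of 54 sets of 4 arrays (9 isoforms in 6 groups) 1 array stood far from the other 3 by Dixon's criterion, and chance alone gives about 1 in 20. Hk2 was lowest in SL liver at 4.59, below background like the other 3. Aldoa was lowest among ED14.5 control arrays at 11.12 and Pkm among ED7.5 control arrays at 12.18, and these are the arrays with the lowest separation of control probe sets, replicates 1 and 2. Ldha was lowest among ED7.5 SL arrays at 11.74. Among the listed genes, the SL difference of Ddit4 differed between PD7.5 and ED14.5 by -1.74 in the interaction test.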

How the results depend on the processing

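The number of members called in each of the 12 comparisons was within 1.5 times of that reported under all 95 other settings and all 120 that left out 1 array. Whether numbers shared by replicates pair the samples is not stated. Same-numbered deviations correlated at -0.166 to 0.116, and with no differently numbered pairs set beside them these values cannot decide it. With the replicate number as a block, 0 members were called in the SL comparisons, as without it, genes called at ED14.5 went from 10 to 0, and Ldha from ED14.5 to PD7.5 in SL samples lost its call (adjusted p = 0.0558), while no other single-gene call named here changed. Uncalled differences near 0 changed sign, and the cause was not tested. With quantile normalization within the comparison, SL minus control in the liver was 0.0041 for Pfkm and 0.017 for Pfkp, and the SL effect of Pfkl at PD7.5 minus ED7.5 was 0.0068 (0.042 with array weights, 0.012 with arrays centred). With arrays centred Aldoc from ED14.5 to PD7.5 was 0.050. Without the 2 control arrays of lowest separation the SL effect of Hk2 at ED14.5 minus ED7.5 was -0.058. Leaving out 1 array at a time, SL minus control at ED7.5 ranged from -0.040 to 0.12 for Aldoa, -0.21 to 0.019 for Hk1, -0.15 to 0.082 for Hk2 and -0.095 to 0.14 for Pfkl. At ED14.5 it ranged from -0.21 to 0.12 for Hk2 and -0.056 to 0.013 for Ldha. In the liver it ranged from -0.34 to 0.20 for Hk1, -0.15 to 0.38 for Hk2, -0.095 to 0.12 for Pfkl, -0.16 to 0.12 for Pfkm and -0.14 to 0.020 for Pfkp. Pfkl from ED7.5 to PD7.5 ranged from -0.10 to 0.13 in control and -0.10 to 0.12 in SL samples. The SL effect at ED14.5 minus ED7.5 ranged from -0.18 to 0.15 for Hk2. At PD7.5 minus ED14.5 it ranged from -0.40 to 0.14 for Hk1, -0.14 to 0.38 for Hk2 and -0.25 to 0.029 for Pfkm. At PD7.5 minus ED7.5 it ranged from -0.26 to 0.29 for Hk1, -0.11 to 0.42 for Hk2, -0.14 to 0.12 for Pfkl and -0.053 to 0.13 for Pfkp. Counts over all genes moved more. SL minus control called 1, 10 and 0 genes at the 3 ages as reported, 12, 79 and 5 in one fit of all 24 arrays, 3 and 283 at ED7.5 and ED14.5 with an intensity trend, 95 at ED14.5 without the dimmest 33% of genes and 5 there with arrays centred. Without 1 array each, they ranged over 0 to 2, 1 to 5 and 0 to 0. Interactions called 15, 5 and 1 as reported, 35 and 28 for the former pair with the trend, 46 and 0 for the first and last with array weights, 28 and 18 without dim genes, 10 and 8 for the second with quantile normalization and centring, 9 and 2 for the second and last with the block, and 9 for the first without the 2 arrays of lowest separation. Without 1 array each these were 8 to 19, 1 to 16 and 0 to 10.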
